A study of Mus musculus with 14 samples.

Results

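The 5 genes described here encode proteins that the airway lining releases or needs in order to release others: Scgb1a1, Retnla, Muc5ac, Agr2 and Dmbt1. They were chosen by symbol, with earlier results of the same tables in view, from the 4658 genes that have a row in at least 1 of the 2 deposited tables. Retnla, Muc5ac, Agr2 and Dmbt1 have a row among the 772 genes of the Men1 table. Scgb1a1 has a row among the 3956 genes of the Kmt2a table. None of the 5 genes is in both tables, so no gene can be followed through both knockouts. Each table holds genes the authors had already selected for a difference, and the values below therefore describe the 5 genes and are not tests of them. In the Men1 table the smallest deposited log2 fold change was 1.00 in size and the largest unadjusted p was 0.0499, and every gene of the Kmt2a table had an adjusted p below 0.05. The log2 ratios of Retnla, Muc5ac and Agr2 given below, 1.13 to 1.40, lie near that smallest value.

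RNA of mouse lung was sequenced in 4 Men1 knockout (KO) and 4 wild-type (WT) libraries, and in 3 Kmt2a knockout and 3 wild-type libraries. Men1 encodes menin, a partner of the histone methyltransferase that Kmt2a encodes. The labels give the genotype of each library but no allele, Cre driver, strain, age or sex, and no treatment. They name lung as the tissue, while the extraction protocol speaks of macrophages of the peritoneum. No member of the 15-gene peritoneal macrophage list, and none of the 21 alveolar or 20 interstitial macrophage genes listed, has a row in the Men1 table, so its tissue could not be checked on them. Muc5ac and Agr2, which are epithelial genes, had reads in every Men1 library. Sftpb, a surfactant protein gene of the lung, had means of 69072 normalized counts in the Kmt2a knockout and 37056 in its wild type, in the authors' deposited table. Neither Men1 nor Kmt2a has a row, and the knockouts could not be checked on the targeted genes.

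The conducting airways of the mouse are lined mainly by club cells, which secrete the small protein of Scgb1a1, and by ciliated cells. Few mucous (goblet) cells are present in an unchallenged mouse airway, and club cells can turn into them under type 2 cytokines such as interleukin 13. Mucous cells store the gel-forming mucin of Muc5ac, and fold it in the endoplasmic reticulum with the help of Agr2, a protein disulfide isomerase. Retnla encodes resistin-like molecule alpha, which airway epithelium and macrophages secrete in type 2 inflammation. Dmbt1 encodes a scavenger receptor cysteine-rich glycoprotein of mucosal fluids that binds bacteria.

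In the Men1 comparison the mean of all 4 genes was higher in the knockout, and of the 4 Dmbt1 alone had an adjusted p under 0.05, the threshold used here for calling a gene changed. Retnla, Muc5ac and Agr2 had means 2.64, 2.19 and 2.46 times those of the wild type, with adjusted p values of 0.322, 0.176 and 0.196 in the authors' deposited table. Of all genes in it, 70.1% had a higher mean in the knockout. In either direction, 13 genes passed the adjusted p, which is 1.68% of all 772 and 6.05% of the 215 for which the authors give one. Those 215 include all 4 genes described here. Since the 4 genes were chosen from this same contrast, nothing is read from their counts. The values are counts divided by the authors' size factor for each library. The size factors, a measure of relative depth, ran from 0.811 to 1.38. In whole tissue, fewer cells of a type and less RNA per cell cannot be told apart.

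Retnla was the most abundant gene of the Men1 table, ranking at place 1 of 772 by its mean over the 8 libraries. The knockout libraries KO-6075, KO-6076, KO-6084 and KO-6086 had 12156, 4586, 26356 and 21349 normalized counts, against 2396, 11509.6, 5033 and 5453 in the wild-type libraries WT-6074, WT-6094, WT-6097 and WT-6100. KO-6084 and KO-6086 lay well above every wild-type library, KO-6075 just above the highest of them, and KO-6076 below 3 of the 4. The groups overlapped. The mean was 16112 ± 9676 in the knockout and 6098 ± 3853 in the wild type (SD, n = 4 each), a log2 ratio of 1.40. The gene lies on the plus strand at chr16:48842551-48844461 (GRCm38), with 599 exonic bases in 4 exons.

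The 250 bases before the RefSeq start of Retnla are shown because this gene carried most of the reads of the group and because type 2 signalling acts on it through STAT6, as is known from mouse cells. The window is chr16:48842359-48842608 on the plus strand of GRCm38.p6. The RefSeq start lies downstream of the GENCODE start, 48842551, so the end of the window, with the TATA box, lies within the gene as positioned above. Positions are counted from the RefSeq start. The capitals mark, in order, a match to the STAT6 motif TTCNNNNGAA, a match to the C/EBP motif TTGCNNAA and a TATA box, TATAAA.
Retnla: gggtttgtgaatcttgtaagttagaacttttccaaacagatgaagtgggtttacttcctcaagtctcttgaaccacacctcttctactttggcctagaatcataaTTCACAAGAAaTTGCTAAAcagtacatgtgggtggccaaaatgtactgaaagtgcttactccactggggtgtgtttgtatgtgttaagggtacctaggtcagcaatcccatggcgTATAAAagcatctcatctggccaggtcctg
Agr2: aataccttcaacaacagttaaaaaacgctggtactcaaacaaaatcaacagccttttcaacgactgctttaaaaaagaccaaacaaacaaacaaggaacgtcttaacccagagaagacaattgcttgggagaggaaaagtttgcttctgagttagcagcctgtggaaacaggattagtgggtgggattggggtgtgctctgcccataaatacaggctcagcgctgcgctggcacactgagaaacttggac

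The STAT6 and C/EBP matches of Retnla lie next to each other, at 145 to 136 and 134 to 127 bases before the start, and the TATA box at 30 to 25. Agr2, whose window is chr12:35992675-35992924 on the plus strand, is set beside it because it tracked Retnla across libraries. The Agr2 window likewise runs past the GENCODE start of that gene, 35992907. It holds none of these motifs, nor a forkhead match (TGTTTAC) or an E-box (CACGTG), and has no capitals. Of the 32851 RefSeq promoter windows of the same length, searched on both strands, 5.85% hold the STAT6 motif, 9.56% the C/EBP motif, 12.4% the TATA box, 3.17% the forkhead motif and 6.02% the E-box. The motifs do not overlap each other in the Retnla window, and a match in letters is not a bound site.

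Muc5ac encodes the large polymer that gives airway mucus its gel. It had 127, 42.8, 194 and 202 normalized counts in KO-6075, KO-6076, KO-6084 and KO-6086, against 50.8, 91.3, 46.4 and 69.5 in WT-6074, WT-6094, WT-6097 and WT-6100. KO-6075, KO-6084 and KO-6086 lay above all wild-type libraries, and KO-6076 lay below all of them. The mean was 141 ± 73.9 in the knockout and 64.5 ± 20.5 in the wild type (SD, n = 4 each), a log2 ratio of 1.13. The gene spans chr7:141788972-141819231 (GRCm38, plus strand), with 10752 exonic bases.

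Agr2, the disulfide isomerase on which mucin folding depends, had 29.3, 14.5, 53.4 and 67.8 normalized counts in KO-6075, KO-6076, KO-6084 and KO-6086, against 8.28, 18.7, 18.4 and 21.8 in WT-6074, WT-6094, WT-6097 and WT-6100. As for Muc5ac, KO-6086 was the highest and KO-6076 the lowest knockout library, and KO-6076 alone lay within the wild-type range. The mean was 41.2 ± 23.9 in the knockout and 16.8 ± 5.87 in the wild type (SD, n = 4 each), a log2 ratio of 1.30. The counts behind these values are small, 20 to 66 raw reads in a knockout library and 7 to 21 in a wild-type library. Agr2 lies at chr12:35992907-36004087 (GRCm38, plus strand), with 1291 exonic bases.

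Dmbt1 rose in the knockout, with an adjusted p of 0.0472 in the authors' deposited table, and 1 library supplied most of its reads. It had 4.72, 7.26, 11.3 and 240.4 normalized counts in KO-6075, KO-6076, KO-6084 and KO-6086, against 1.18, 1.17, 1.93 and 2.07 in WT-6074, WT-6094, WT-6097 and WT-6100. The lowest knockout library still lay above the highest wild-type library, so the groups did not overlap, as in 35.5% of all genes of the table. In raw reads the knockout libraries had 5, 10, 14 and 195, and the wild-type libraries 1, 1, 2 and 2. The mean was 65.9 ± 116 in the knockout and 1.59 ± 0.481 in the wild type (SD, n = 4 each), a log2 ratio of 5.37.

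Without KO-6086 the log2 ratio of Dmbt1 was 2.29. The 29 reads of the remaining knockout libraries and the 6 of the wild type then gave a ratio of read rates of 4.87, with a 95% interval of 1.99 to 14.3 that covers counting error only (exact, Clopper-Pearson). With all libraries, the 224 knockout reads gave a ratio of 30.8 against the same 6 reads, with an interval of 13.9 to 84.8. As the groups did not overlap, leaving out KO-6086 could not turn the direction of the difference in Dmbt1, and its size differed. Just inside the adjusted p threshold with Dmbt1 (0.0472) stood Gm56882 (0.0473), and just outside it Gm47139 (0.0525), as listed in the authors' deposited table. Dmbt1 is at chr7:131032053-131121630 (GRCm38, plus strand), with 7057 exonic bases. Fgfr2 overlaps it on the other strand but shares none of its exonic bases, so reads of these exons are not ambiguous between the 2 genes.

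**Figure D1:**
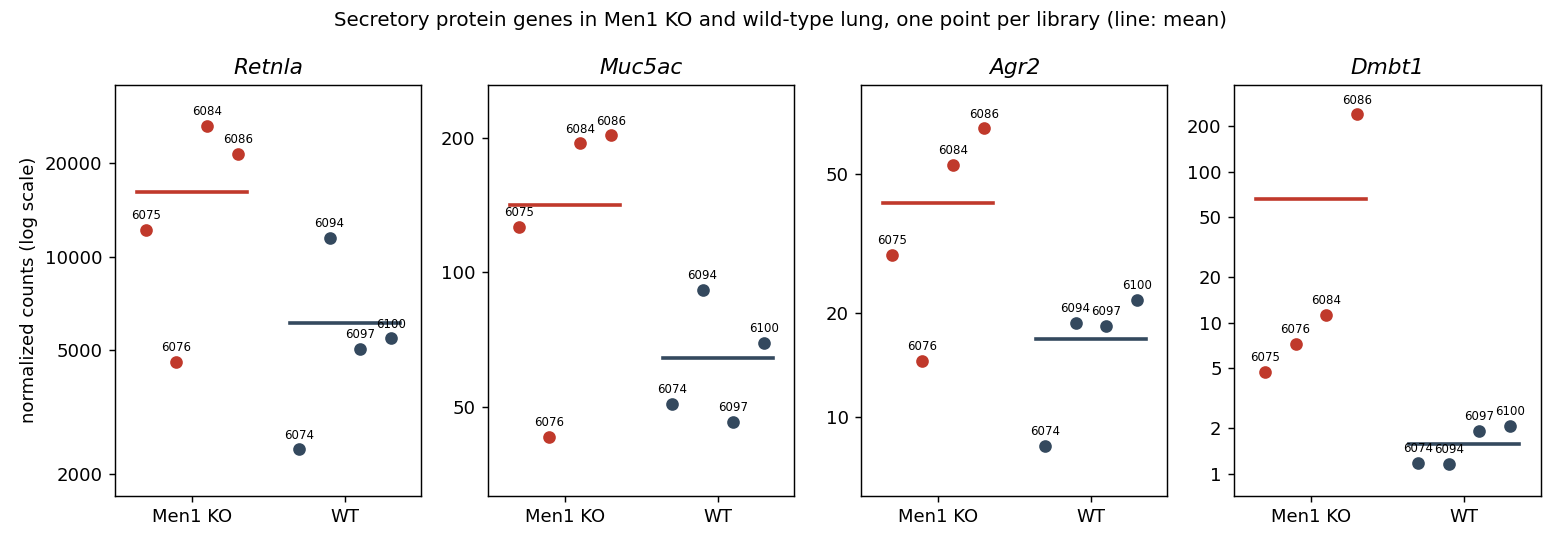
Normalized counts of Retnla, Muc5ac, Agr2 and Dmbt1 on a log axis, with 1 point per library labelled by the number in its title and a line at the group mean, Men1 KO at left and WT at right in each panel. KO-6076 sits among or below the wild-type points for Retnla, Muc5ac and Agr2, and KO-6086 stands at 240.4 for Dmbt1, against 1.17 to 2.07 in the wild type.

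Per kilobase of exon, the knockout means were 26898 normalized counts for Retnla, 31.9 for Agr2, 13.1 for Muc5ac and 9.34 for Dmbt1, and the wild-type means 10179.95, 13.0, 6.00 and 0.225. The order of these mean levels was the same in both groups, and Retnla exceeded the others by far in every library. Agr2 stood above Muc5ac in 8 of 8 libraries, although the ranges of both overlapped within each group. Muc5ac stood above Dmbt1 in 7 of 8 libraries, the exception being KO-6086, with 18.8 per kilobase for Muc5ac and 34.1 for Dmbt1.

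The spread within a group was wide. The highest knockout library exceeded the lowest by 5.75 times for Retnla, 4.72 times for Muc5ac, 4.67 times for Agr2 and 50.9 times for Dmbt1. In the wild type the same ratio was 4.80, 1.97, 2.63 and 1.77. Counting error is small beside this for Retnla, whose library with the fewest reads, WT-6074, had 2026 raw reads (95% Poisson interval 1939 to 2116).

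Retnla, Muc5ac and Agr2 varied together from library to library, more closely in the knockout than in the wild type. Their deviations from the group mean, on the log2(normalized count + 1) scale, correlated over the 8 libraries at 0.899 (Retnla and Muc5ac), 0.888 (Retnla and Agr2) and 0.854 (Muc5ac and Agr2). With each of these 3 genes, the median correlation of the 189 other named genes with a mean of at least 10 was 0.0844, 0.0944 and 0.175. In KO-6076 the deviations were −1.54 for Retnla, −1.48 for Muc5ac and −1.23 for Agr2, each the largest in size of the 8 libraries. In KO-6084 they were 0.99, 0.68 and 0.58. In the wild type, WT-6074 lay below its group mean in all 3 genes, with −1.13, −0.29 and −0.86. WT-6094 had 1.13, 0.55 and 0.23, and in WT-6097 the directions differed, with −0.06, −0.42 and 0.20. Dmbt1 followed them less closely, at 0.363 with Retnla, 0.460 with Muc5ac and 0.627 with Agr2. These are descriptions over 8 libraries that share a scaling factor for all genes of a library.

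**Figure D2:**
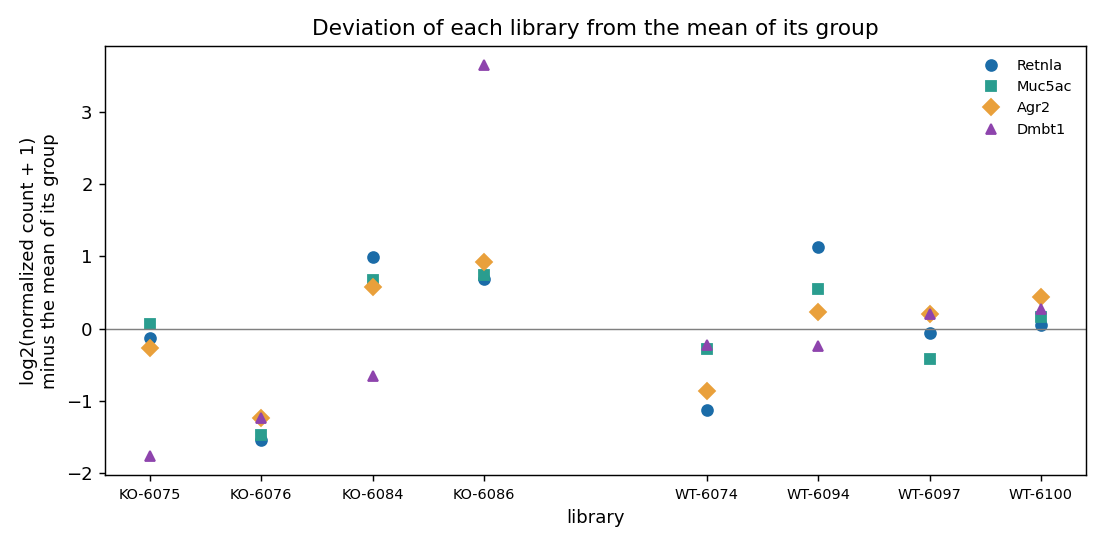
Deviation of each library from the mean of its own group in log2(normalized count + 1), for Retnla, Muc5ac, Agr2 and Dmbt1, with the Men1 KO libraries at left and the WT libraries at right. Retnla, Muc5ac and Agr2 lie close together in each KO library, between −1.54 and −1.23 in KO-6076, while Dmbt1 reaches 3.64 in KO-6086.

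KO-6076 decided whether the groups overlapped. When it was left out, a setting chosen after the values were seen, the libraries of all 4 genes no longer overlapped, as was then the case for 48.3% of the genes of the table. With any other library left out, Dmbt1 alone of the 4 did not overlap. The log2 ratio without KO-6076 was 1.71 for Retnla, 1.43 for Muc5ac and 1.58 for Agr2. KO-6076 had the largest size factor, 1.38, and was the lowest knockout library in 34.2% of the 541 genes with a higher knockout mean. Without WT-6094, the highest wild-type library for Retnla, the log2 ratio of Retnla was 1.91. No left-out library turned the direction of any of the 4 genes, and for Dmbt1, whose groups did not overlap, none could.

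**Figure D3:**
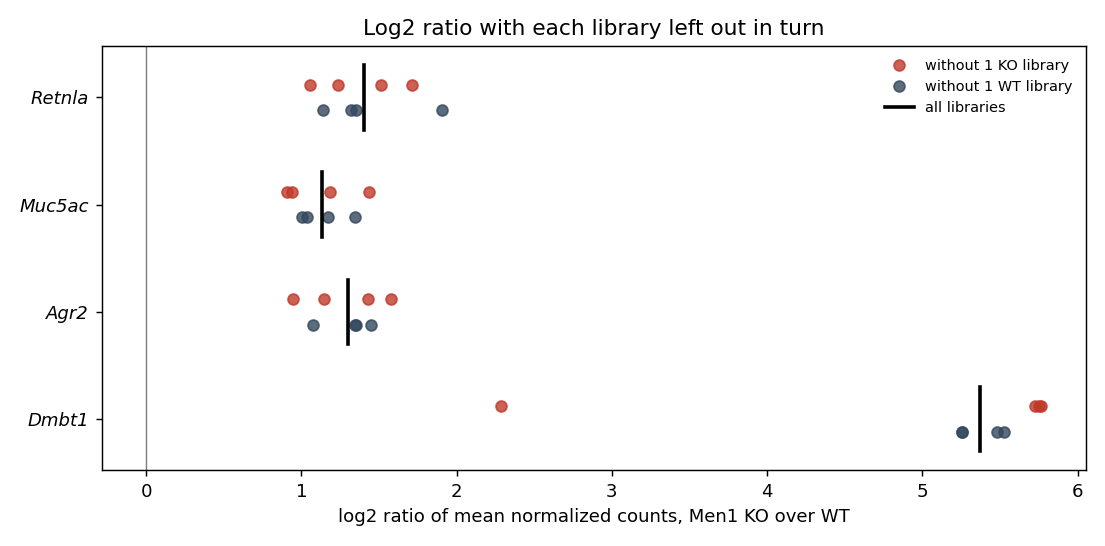
Log2 ratio of mean normalized counts, Men1 KO over WT, for each gene with all libraries (black line) and with 1 KO library (red) or 1 WT library (grey) left out. The values stay between 0.91 and 1.91 for Retnla, Muc5ac and Agr2, and run from 2.29 to 5.76 for Dmbt1.

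The genes whose deviations were most like those of Retnla were Aoc1 (r = 0.994), Speer4c1 (0.960) and 5430421F17Rik (0.919). Aoc1, which encodes the histamine- and putrescine-degrading amine oxidase, had 227, 87.9, 479 and 383 normalized counts in KO-6075, KO-6076, KO-6084 and KO-6086, against 52.0, 241, 86.0 and 105 in WT-6074, WT-6094, WT-6097 and WT-6100. It thus had the same order of libraries as Retnla within the knockout, while 2 of its knockout libraries, against 3 for Retnla, lay above the highest wild-type library. Its adjusted p was 0.406 in the authors' deposited table.

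Muc5ac was most like Spaca4 (r = 0.947), Anxa8 (0.932) and Espnl (0.920). Anxa8, an annexin gene of stratified epithelia, had 467, 248, 910.2 and 706 normalized counts in the knockout libraries in the same order, against 189, 249, 218 and 238 in the wild-type libraries. In contrast to Muc5ac, its wild-type libraries stayed within a narrow range, and KO-6076 lay just under the highest of them. Agr2 was most like Aspg (r = 0.957), Fxyd4 (0.942) and Speer4c1 (0.934), the last also on the list of Retnla. For these 8 different genes the adjusted p in the authors' deposited table ran from 0.0767 to 0.406.

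Dmbt1 was most like F2 (r = 0.848), Igkv4-62 (0.839) and BC030500 (0.830). The deviation of Dmbt1 was 3.64 in KO-6086, and at most 0.27 in size in any wild-type library. These correlations therefore rest mostly on KO-6086. F2, the prothrombin gene of the liver, had 36.8, 44.3, 25.9 and 108 normalized counts in KO-6075, KO-6076, KO-6084 and KO-6086, against 27.2, 19.9, 22.2 and 28.0 in WT-6074, WT-6094, WT-6097 and WT-6100. Igkv4-62, an immunoglobulin light chain variable gene, had 72.7 in KO-6086 and at most 2.91 in any other library. Dmbt1, Igkv4-62 and Ighv1-20 were the only genes of the table with at least 20 normalized counts in KO-6086 and over 5 times those of every other library, a description made after the values were seen.

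Genes of gut and liver epithelium were also highest in KO-6086. Of the 28 genes in that list, Apob, Apoa1, Apoa4 and Alb have a row, all with a higher mean in the knockout, and the other 24 have none. Apob, the apolipoprotein of chylomicrons and very low density lipoproteins, passed with an adjusted p of 0.0414 in the authors' deposited table. Albumin (Alb) had 624, 493, 83.3 and 2451 normalized counts in KO-6075, KO-6076, KO-6084 and KO-6086, against 132, 102, 247 and 428 in WT-6074, WT-6094, WT-6097 and WT-6100. The summed level of the 4 genes was 3181 in KO-6086 and 224 to 892 in the other knockout libraries, against 160 to 611 in the wild type. Their part in the Dmbt1 result was not tested.

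The mucous and glandular secretion list, 30 genes that include 3 of the 4 described here, held 2 further genes of the Men1 table. Azgp1, a secreted glycoprotein gene of glandular epithelia, rose with an adjusted p of 0.0108 in the authors' deposited table, and its libraries did not overlap. Its log2 ratio was 1.10. Ern2 encodes IRE1 beta, the endoplasmic reticulum stress sensor of mucous cells, which acts in mucin production together with Agr2. It had 15.1, 14.5, 24.3 and 32.1 normalized counts in KO-6075, KO-6076, KO-6084 and KO-6086, against 4.73, 16.4, 0.966 and 1.04 in WT-6074, WT-6094, WT-6097 and WT-6100. Apart from WT-6094, each wild-type library lay far below every knockout library. The mean of Ern2 was 21.5 ± 8.34 in the knockout and 5.78 ± 7.29 in the wild type (SD, n = 4 each), with an adjusted p of 0.169 in the authors' deposited table. Within groups Ern2 correlated at 0.150 with Agr2 and at 0.483 with Muc5ac.

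All 5 listed genes of mucous secretion in the Men1 table thus had a higher knockout mean, as did 70.1% of all genes of the table. Their median log2 ratio was 1.30, against 1.38 over all genes of the table. Muc5ac, Agr2 and Dmbt1 are among the 5 and were chosen from this same contrast, so nothing is read from the count. The 25 other genes of the list have no row, among them those of the mucin Muc5b, the transcription factors Spdef and Foxa3, and Clca1. Of 30 genes of the type 2 response, Retnla alone has a row. Arg1, Chil3, Il13 and the other 26 have none. Of 30 genes of protein folding in the endoplasmic reticulum, Agr2 and Ern2 have a row. No club cell gene (25 listed), ciliated cell gene (25 listed), alveolar type 2 gene (20 listed) or eosinophil and mast cell gene (17 listed) has one.

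Of the 10 basal cell genes listed, the keratin gene Krt14 has a row, with a log2 ratio of 1.54 and an adjusted p of 0.186 in the authors' deposited table. Blood cell genes had lower means in the same knockout libraries. The summed level of the 3 neutrophil genes with a row (Camp, Ngp and Mpo, of 20) ran from 23.6 to 163 in the knockout, against 170 to 460.0 in the wild type. Slc4a1, the anion exchanger gene of red blood cells and on the erythroid list of 20, ran from 33.3 to 49.4 in the knockout, against 47.7 to 133 in the wild type. Krt14, Camp, Ngp and Slc4a1 did not pass, and the authors give no adjusted p for Mpo. Their part in the values of the secretory genes was not tested.

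Near the 4 genes, within 1 Mb, the Men1 table holds 3 others, each with a higher knockout mean, as had 70.1% of all its genes. The authors give no adjusted p for Cdcp3 and Cdhr5, and that of Syt8 was 0.199 in their deposited table. Cdcp3, 52772 bases from Dmbt1, had 11.3, 11.6, 8.89 and 27.1 normalized counts in KO-6075, KO-6076, KO-6084 and KO-6086, against 7.09, 9.37, 4.83 and 5.18 in WT-6074, WT-6094, WT-6097 and WT-6100. Like Dmbt1 it was highest in KO-6086, at a far smaller excess. Syt8, a synaptotagmin gene 615619 bases from Muc5ac, had a log2 ratio of 1.48 and correlated within groups at 0.912 with Muc5ac. Cdhr5, 512186 bases from Muc5ac, had a log2 ratio of 1.32 and a correlation of −0.0414. Retnla and Agr2 have no such neighbour in the table.

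In the Kmt2a comparison Scgb1a1 fell to a mean of 612534 normalized counts in the knockout, against 1958770 in the wild type, as means in the authors' deposited table. The log2 ratio was −1.68 and the adjusted p of that table was 0.000202. The knockout mean was 31.3% of the wild-type mean. Scgb1a1 encodes secretoglobin 1A1 (uteroglobin, or club cell secretory protein), the main protein that club cells release into the airway fluid. The table gives group means without values per library, so no SD, overlap or left-out library can be given. All genes of this table (100%) have an adjusted p below 0.05, and 49.5% passed as lower, so passing as lower does not set Scgb1a1 apart.

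Scgb1a1 had the highest level of the table. It ranked at place 1 of 3956 in both groups, ahead of mt-Co1 of the mitochondrial genome at 205216 in the knockout and 512919 in the wild type, as means in the authors' deposited table. It also ranked at place 1 in both groups per kilobase of exon, among the 3948 genes with an annotated length. Its own exons add up to 476 bases in 3 exons at chr19:9083636-9087958 (GRCm38, minus strand). Scgb1a1 took 8.54% of the summed means of the table in the knockout and 22.6% in the wild type. These shares are of the listed genes, not of the libraries.

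The fall of Scgb1a1 made up 91.3% of the net difference between the summed means of the table, which is what remained after rises and falls of other genes offset each other. The sum over all listed genes was 7176078 in the knockout and 8650742 in the wild type, and without Scgb1a1 it was 6563545 in the knockout and 6691972 in the wild type. Scgb1a1 was thus not the only large change. In the authors' deposited table mt-Co1 fell from 512919 in the wild type to 205216 in the knockout. The summed means of the alveolar type 2 genes rose from 154353 to 690240.5. Among the most abundant genes, those of the mitochondrial genome had log2 ratios from −1.64 (mt-Nd1) to −1.32 (mt-Nd5). By the size of its log2 ratio Scgb1a1 was less extreme, at place 631 of 3956 from the lowest.

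**Figure D4:**
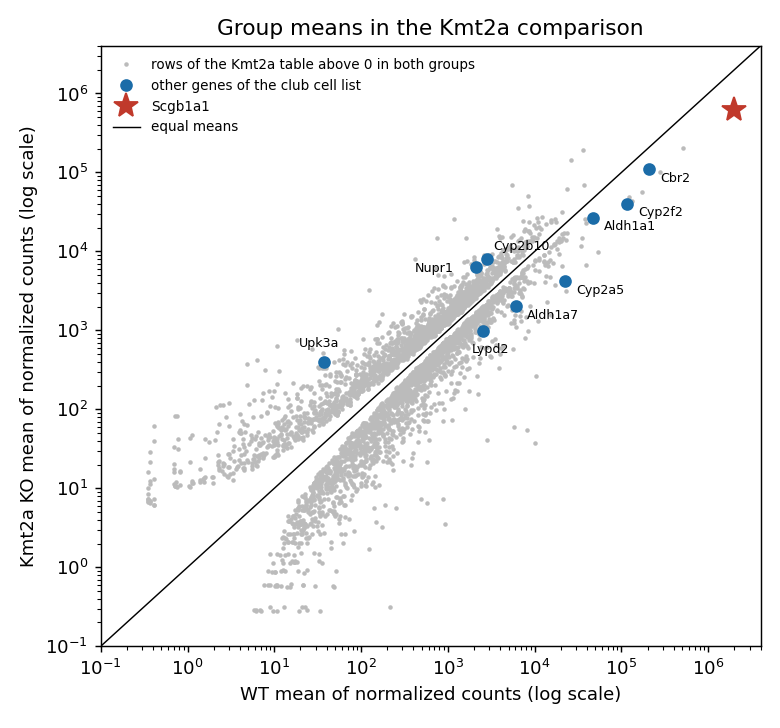
Deposited mean of normalized counts in the Kmt2a KO (vertical, log axis) against the WT (horizontal, log axis) for every gene of the table above 0 in both groups, with Scgb1a1 as a red star, other listed club cell genes that the text names in blue and a line at equal means. Scgb1a1 is the gene farthest to the right, below the line at 612534 in the KO, against 1958770 in the WT.

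Other club cell genes went both ways. Of the 25 listed, 11 have a row, of which 8 passed as lower and 3 as higher, while 49.5% of the table passed as lower. The median log2 ratio of the 11 was −1.24, against 0.32 over the table. Among the 8 lower ones were, besides Scgb1a1, the enzyme genes Cyp2a5 (−2.42), Aldh1a7 (−1.60), Cyp2f2 (−1.55), Cbr2 (−0.93) and Aldh1a1 (−0.81), and Lypd2 (−1.36). Aldh1a7, Cyp2f2, Cbr2, Aldh1a1, Lypd2 and the higher Cyp2b10 are named here after their values were seen. Cbr2, the lung carbonyl reductase, stood at 109612 in the knockout and 209440.4 in the wild type, the fourth highest wild-type mean in the authors' deposited table. Upk3a, a uroplakin gene that marks a small subset of club cells, rose to 402 in the knockout, against 37.1 in the wild type (log2 ratio 3.44). Nupr1, a stress-response gene, rose to 6357 in the knockout, against 2096 in the wild type (1.60), and Cyp2b10 rose with a log2 ratio of 1.53. The levels of the 2 groups in these sentences are means in the authors' deposited table. At an adjusted p below 0.01, 4 of the 8 remained as lower.

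Genes of mucous and glandular secretion with a row in the Kmt2a table were all higher, 7 of 30 listed, while 50.5% of the table passed as higher. Lcn2, the siderophore-binding lipocalin, stood at 14704 in the knockout and 746 in the wild type (log2 ratio 4.30), and lactoferrin (Ltf) at 8120.1 in the knockout and 423 in the wild type (4.26), as means in the authors' deposited table. Both are also genes of neutrophil granules and on the neutrophil list, whose only other gene with a row, myeloperoxidase (Mpo), was lower at −4.45. Mpo had very low means in the authors' deposited table, 0.283 in the knockout and 6.21 in the wild type. Slc26a4, the anion exchanger pendrin of airway epithelium, had a log2 ratio of 3.82. Fcgbp, which encodes a mucin-associated protein, had 1.29 and Clca3a1 0.97. Azgp1, higher in the Men1 knockout as well, had 1.81. The 2 comparisons use different libraries, and their tables were scaled separately. The median log2 ratio of the 7 genes was 1.81.

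Relatives of the described genes in the Kmt2a table were 3 mucins that stay on the cell membrane rather than form a gel, each higher in the Kmt2a knockout in the authors' deposited table. Muc16 stood at 384 in the knockout and 78.0 in the wild type, Muc20 at 472 in the knockout and 209.8 in the wild type, and Muc1 at 7060 in the knockout and 3934 in the wild type. Their log2 ratios were 2.30, 1.17 and 0.84. No other secretoglobin, resistin-like, anterior gradient or gel-forming mucin gene has a row in that table.

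The type 2 list, to which Retnla belongs, had 6 of 30 genes in the Kmt2a table, 5 higher and 1 lower. Of the whole table, 50.5% passed as higher. Chil3, a chitinase-like lectin of alveolar macrophages, had a log2 ratio of 3.19 and Il33, an alarmin cytokine of alveolar type 2 cells, 2.10, the latter named after its value was seen. Slc26a4 is on this list as well. Postn had 0.64, and Clec10a, a lectin of macrophages and dendritic cells, was lower at −1.42. Of the protein folding list, 6 genes were higher and 2 lower of 30 listed, all by small amounts: Sdf2l1 had 0.86, Dnajc3 0.62, Atf4 −0.56 and Pdia5 −0.64. At an adjusted p below 0.01, 2 higher genes and the 1 lower gene of the type 2 list remained, as did 2 higher and 1 lower of the folding list.

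**Figure D5:**
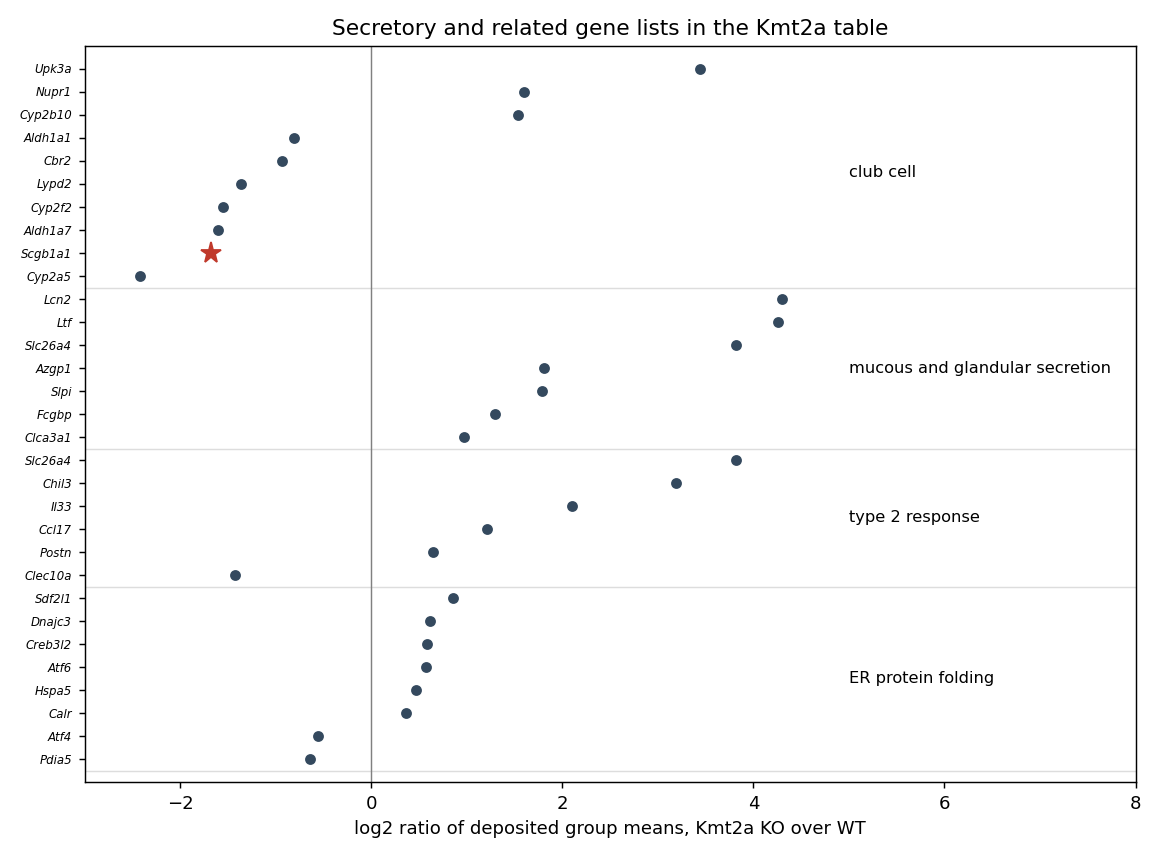
Log2 ratio of the deposited group means, Kmt2a KO over WT, for the listed genes with a row in the table, other than 1 club cell gene not shown, grouped as club cell, mucous and glandular secretion, type 2 response and endoplasmic reticulum (ER) protein folding genes, with Scgb1a1 as a red star. Club cell genes lie on both sides of 0, from −2.42 for Cyp2a5 to 3.44 for Upk3a, and the 7 secretion genes all lie above 0.

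Markers of other cell types also have rows in the Kmt2a table, where every gene passed, 50.5% as higher and 49.5% as lower. Of 20 alveolar type 2 genes listed, 16 have a row and all were higher, from 0.84 for Abca3 to 4.45 for Chil1. Their median log2 ratio was 2.11, against 0.32 over the table. Their summed means were 690240.5 in the knockout and 154353 in the wild type. The other 4 have no row. The 2 ciliated cell genes with a row (of 25 listed), Dnah5 and Mcidas, were higher at 0.98 and 1.76, and so were the 2 genes of the basal cell list, Krt14 (3.24) and Icam1, whose means in the authors' deposited table were 9165 in the knockout and 3236 in the wild type. All 9 interstitial macrophage genes with a row were higher, from 1.13 for Cd68 to 2.70 for Spp1. Alveolar macrophage genes were higher in 6 cases and lower in 3, from −3.12 for Fabp1 to 3.19 for Chil3. Of the peritoneal macrophage list, Lrg1 has a row, at 2.45. The mast cell protease genes Mcpt4 (−2.40) and Cma1 (−1.82) were lower, as were 7 of 8 erythroid genes, with Hba-a2 at −3.28. The summed means of the 8 erythroid genes were 20907 in the knockout and 112330 in the wild type. Of the gut and liver list, Phgr1 (5.33) and Olfm4 (4.29) were higher and Fabp1, which is also on the alveolar macrophage list, was lower. Phgr1, Olfm4 and Fabp1 had low means in the authors' deposited table. These were 43.5, 40.7 and 6.66 in the knockout, against 1.08, 2.08 and 58.0 in the wild type. Krt14, Mcpt4 and Cma1 also had low means there, 22.0, 3.84 and 7.61 in the knockout against 2.33, 20.2 and 26.8 in the wild type. The part of these cell type markers in the Scgb1a1 result was not tested.

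Within 1 Mb of Scgb1a1 the Kmt2a table holds 10 other genes, 3 higher and 7 lower, from Pcna-ps2 at −6.09 to Fads2 at 0.86. The nearest, B3gat3, lies 156400 bases away and had −0.38. Over the whole table, 49.5% passed as lower.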

How the data were processed

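Both tables were deposited by the submitters. Per the file headers, the Men1 table holds raw counts per gene and library, and a signal, the counts the authors divided by a size factor per library (the ratio of the columns is the same for every gene). The deposited log2 fold change, p-value and adjusted p come with it. The deposited Kmt2a signal is the group mean of normalized counts (knockout column MLL). Its WT column names no libraries and was taken as the Kmt2a wild type. Tools named, per the submitters' processing notes and without roles, are DESeq2 1.16.1, HISAT2 2.0.5 and featureCounts 1.5.0-p3, and the builds GRCm38 and mm10. The kit named in the labels' protocols, NEBNext Ultra, is not one that marks strand. Library totals are not in the filtered tables. In the Men1 table, 2 columns match no sample and were not used, and 215 of 772 genes have an adjusted p.

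The members and lists were chosen with earlier results of these data known. Means, SDs and log2 ratios of means (KO over WT) were computed in Python 3.11.15 (pandas 2.3.3, scipy 1.17.1). Calls are the authors' adjusted p at 0.05, with no new test, as both tables are selected. Alternatives were pseudocounts of 1 and 10, raw counts, TMM (edgeR 4.0.16), medians, log means, filters at means of 10 and 50, a threshold of 0.01, and each library left out. Ratios and likeness were checked on simulated data, likeness only with a scaled copy of a gene, and overlap was counted there without a check. Likeness is Pearson's r of log2(normalized count + 1) after subtracting group means, for genes with a symbol and a mean of at least 10, of which the 3 highest are named. Of each of 14 lists, all genes are named where at most 4 have a row, otherwise the 2 highest and 2 lowest log2 ratios. Nothing in the labels says that the libraries of a group come from separate animals, so SDs measure the spread between libraries, which may be technical. Gene positions are from GENCODE M21 and promoters from RefSeq (GRCm38.p6, listed for 2 of the 5 genes, Retnla and Agr2). Of the listed genes, 2 are not reported here by name. Intervals cover counting error only.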

Additional observations from a re-analysis of the deposited data

Results flagged for a closer look

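KO-6086 had 240.4 normalized counts of Dmbt1, far from the other 3 Men1 knockout libraries, and its gap to the nearest of them was 0.972 of the range of the group, above what Dixon's criterion allows for 4 samples. This was the only such value in 8 groups examined (4 genes in 2 groups each). For normally distributed values, chance marks about 1 group in 20, a rate that skewed counts need not follow. The gap and range are in normalized counts, not in their logs. On the log2(normalized count + 1) scale the deviations of KO-6075, KO-6076, KO-6084 and KO-6086 were −1.76, −1.23, −0.65 and 3.64. The flag holds for the untransformed scale only.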

How the results depend on the processing

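No direction of the 4 genes with a row in the Men1 table turned under any alternative tried. A pseudocount added to both means cannot turn a direction. For Dmbt1, whose groups did not overlap, no left-out library, median or log mean could turn it either. Nothing is read from those alternatives on direction. Scaling by TMM over the selected genes, most of which are higher in the knockout, shifted the median log2 ratio of the Men1 table by −0.74, to 0.64, and unscaled raw counts shifted it by 0.27. Under TMM the log2 ratio was 0.33 for Muc5ac, 0.46 for Agr2, 0.61 for Retnla and 4.37 for Dmbt1, and Muc5ac and Agr2 lay below the table's median, as they did with the deposited scaling (1.38), while Retnla lay just above that median with the deposited scaling and just below it under TMM. For Dmbt1 the log2 ratio was 2.71 with a pseudocount of 10, 2.92 from means of log2 values and 2.58 from medians, and 2.29 without KO-6086 (the cause was not tested).

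With each library left out, the log2 ratio ran from 1.06 to 1.91 for Retnla, 0.91 to 1.43 for Muc5ac, 0.95 to 1.58 for Agr2 and 2.29 to 5.76 for Dmbt1. Between 1 and 4 of the 4 genes then had libraries that did not overlap, and 325 to 390 of the 772 genes. At an adjusted p below 0.01, or with a mean of at least 50, the count of the 4 genes called was 0. With a mean of at least 50, 2 of the 4 genes (Retnla and Muc5ac) remained as higher. Of the 235 genes with a mean of at least 10, 70 did not overlap, against 274 of all 772 (35.5%) without the filter. The log2 ratio of Scgb1a1 was −1.68 under all 3 alternatives run, and leaving out its libraries was not run, since the table holds means. Those alternatives were pseudocounts of 1 and 10 and the deposited log2 fold change. At such high means they could not turn the direction, so nothing is read from them. No paired analysis was possible because the groups compared share no replicate numbers. Depth limits Dmbt1 most, with 1 or 2 reads per wild-type library.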
